A study of Mus musculus with 16 samples.

Results

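The cells described here are those that the mitochondrial limit removed: 393 of the 22699 barcodes in the deposited count matrix are missing from the authors' table of 21555 analysed cells and hold more than 10% of their unique molecular identifiers (UMIs, each standing for 1 captured RNA molecule) in genes whose names begin with mt-. A further 751 barcodes are missing from the table at or under 10%. The members were thus chosen by their mitochondrial share, and that share and the depth that forms its denominator are described below without a test. No table cell exceeded the limit, and the highest share in the table was 9.98%. Of the 393 cells, 347 came from quiescent and 46 from activated muscle stem cells (MuSCs).

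The study compared MuSCs of young (3 months) and aged (20 months) male C57Bl/6J mice that carried H2B-GFP+/- and rtTA+/-, so that doxycycline given in the drinking water of the pregnant mothers had labelled nuclei before birth. All groups share this genotype and treatment. Cells that kept the label (LRC, label-retaining cells) and cells that had lost it through division (nonLRC) were sorted from 2 mice of each age as CD31-/CD45-/Sca1- and VCAM+/α7-integrin+ cells, and each population was loaded either at once (quiescent, 0 h) or after 18 h in culture with horse serum on a sarcoma-derived matrix (activated). Activated cells passed a second sort against propidium iodide, which enters dead cells, and quiescent cells are not described as having passed such a step. The number at the end of each barcode gives 1 of 16 libraries and thereby the condition, 2 libraries in each of 8 conditions, but not the mouse. The 2 libraries of a condition are called a and b by their number, and whether a letter stands for an animal is not known. Because the mouse behind a library is not given, p-values do not measure the spread between mice, and permutation p-values measure that between libraries.

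The mitochondrial genome encodes core subunits of the respiratory chain complexes and of ATP synthase, and most other mitochondrial proteins are encoded in the nucleus, translated in the cytosol and imported. Mitochondrial transcripts lie inside a double membrane, whereas mRNAs in the cytosol lie outside it and some long noncoding RNAs stay in the nucleus. A high mitochondrial share is widely used as a filter on cell quality in droplet libraries, and stem cells that leave quiescence are known to enlarge and to gain mitochondria.

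Most of the 393 cells lay close to the limit. The median share was 12.8% and the highest 98.4%, with 76 cells between 10% and 11%, 80 between 11% and 12%, 127 between 12% and 15%, 69 between 15% and 20%, 28 between 20% and 30%, 5 between 30% and 50%, and 8 above 50%. Just inside the limit stood a cell with 1020 mitochondrial of 10182 UMIs (10.02%), a depth that no other quiescent cell over the limit exceeded, and the next had 169 of 1683 UMIs. Just outside stood a table cell with 126 of 1262 UMIs (9.98%) and a barcode outside the table with 80 of 801 (9.99%).

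Both a larger numerator and a smaller denominator separated them from the table. In quiescent libraries the median cell over the limit had 949 UMIs against 3074 in table cells, of which 134 against 90 were mitochondrial and 811 against 2978.5 were not. In activated libraries the medians were 2407 against 8328 UMIs, 310 against 97 mitochondrial UMIs and 2114.5 against 8228 others. Non-mitochondrial RNA was therefore lower, and mitochondrial RNA higher, than in the median table cell at both time points. The 393 cells also had fewer genes, with medians of 443 against 1092 in quiescent and 1185 against 2494 in activated cells. Across libraries the matrix held between 1428554 and 18709962 UMIs, and the cells over the limit contributed between 1912 and 137041 of them. Of the 393 cells, 16 (4.07%) carried a barcode sequence that another library also used, against 797 (3.51%) of all barcodes.

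Cells over the limit were more frequent before culture than after it. In the 8 quiescent libraries their share of all barcodes was lowest at 0.727%, had a median of 1.90% and was highest at 6.28%, and in the 8 activated libraries it was lowest at 0.0758%, had a median of 0.288% and was highest at 0.947%. The ranges overlapped, through young LRC quiescent b at 0.727% and young LRC activated a at 0.947%. The mean was 2.69% ± 1.93 (SD, n = 8) in quiescent and 0.410% ± 0.311 (SD, n = 8) in activated libraries (difference 2.28 percentage points, exact permutation test within age and label class, two-sided p = 0.00309, adjusted over 3 factors p = 0.00926, smallest possible p = 0.00154). The second sort of the activated cells cannot be told apart from the time in culture.

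No difference by age or label class passed the test. The mean share was 1.87% ± 2.23 (SD, n = 8) in aged and 1.23% ± 1.25 (SD, n = 8) in young libraries (exact permutation p = 0.443, adjusted over 3 factors p = 0.664), and 1.52% ± 2.04 in nonLRC against 1.57% ± 1.62 in LRC libraries (SD, n = 8 each, exact permutation p = 0.927, the same after adjustment). Aged quiescent libraries were at 4.21% and 1.72% (LRC a and b) and 6.28% and 1.47% (nonLRC), and young quiescent libraries at 3.95% and 0.727% (LRC) and 2.08% and 1.07% (nonLRC), so the groups overlapped. Within the quiescent a libraries and within the quiescent b libraries taken alone, both aged values lay above both young values. That order was not repeated after culture, where aged libraries were at 0.617% and 0.291% (LRC a and b) and 0.285% and 0.0758% (nonLRC), and young ones at 0.947% and 0.133% (LRC) and 0.712% and 0.223% (nonLRC).

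Library a had the larger share in 8 of 8 conditions, by 1.95 to 7.15 times. Quiescent stayed above activated within each letter: 2.08% to 6.28% against 0.285% to 0.947% in a, and 0.727% to 1.72% against 0.0758% to 0.291% in b. With labels exchanged only within a letter, a test chosen after these values were seen, the exact permutation p was 0.00781 by time point, the smallest possible, 0.281 by age and 0.781 by label class. The table cells of the quiescent a libraries also held hemoglobin UMIs, at 17.9 to 86.7 CPM (counts scaled to a common library total), against 0 to 0.554 CPM in the b libraries, and the part of this in the result was not tested. The depth of the libraries limits these values unevenly, since 6 of the 8 activated libraries had fewer than 10 cells over the limit, down to 1 of 162 barcodes in aged LRC activated a (exact Clopper-Pearson 95% interval 0.0156% to 3.39%, counting error only).

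**Figure D1:**
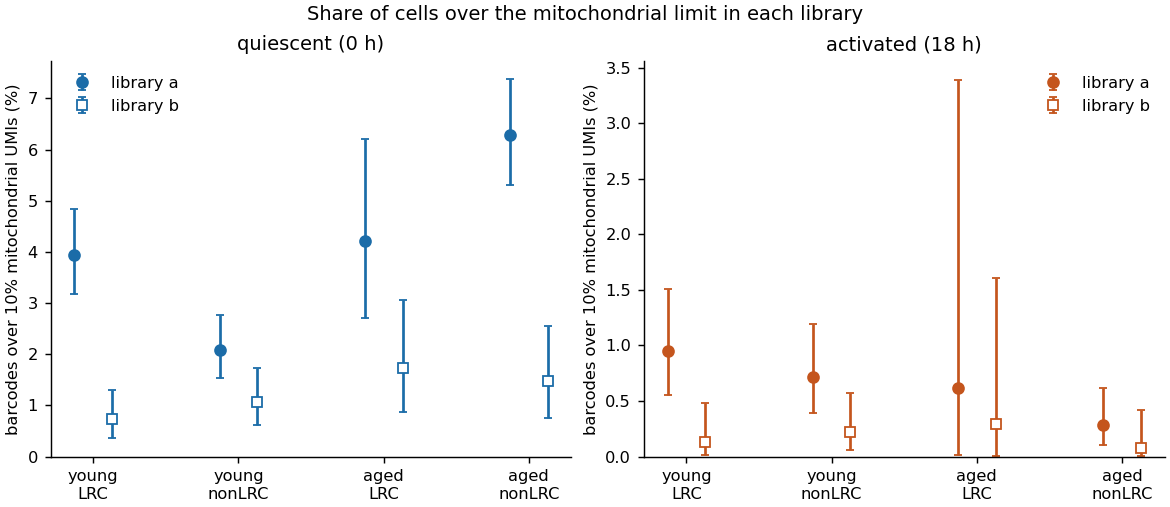
Share of barcodes over 10% mitochondrial UMIs in each of the 16 libraries (vertical axis, percent, with a separate scale for each time point) by age and label class (horizontal axis). Bars are exact 95% binomial intervals of counting error, and in every condition library a lies above library b, with aged nonLRC quiescent a highest at 6.28%.

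Markers of MuSCs were then read in the cells at equal depth. After each cell was thinned to 500 non-mitochondrial UMIs, 115 of 329 quiescent cells over the limit (34.95%) had UMIs of 3 or more of 12 MuSC markers, among them Pax7, Vcam1, Itga7 and Sdc4, against 30.8% of table cells (18 cells over the limit and 1 table cell were too shallow). The order was the other way for 2 or more markers (62.6% against 63.8%) and for at least 1 (89.1% against 92.1%). Without thinning these shares were 54.2% and 92.1%. In activated libraries 4 of 46 cells (8.70%) against 2.82% passed after thinning, and 78.3% against 74.9% without it. As a background, the same markers were read in quiescent barcodes outside the table and at or under the limit that carried 3 or more markers of another cell type, of which there were 413. After the same thinning 2 of them (0.484%) had 3 or more MuSC markers, 7.26% had 2 or more and 41.4% had at least 1, and without thinning 19.9% had 3 or more. Their median of 2569 non-mitochondrial UMIs stood against 811 in quiescent cells over the limit and 2978.5 in table cells. A single MuSC marker was thus frequent in these cells also, and 3 or more were rare in them at equal depth. Of 18 such activated barcodes (median 5043 non-mitochondrial UMIs) 0 had 3 or more after thinning, which allows a share of up to 16.7%, so the activated share of 8.70% cannot be set apart from this background. No doublet caller was run, and none of the 393 cells exceeded the limit of 5000 genes.

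A minority carried markers of other cells of muscle. Of the 347 quiescent cells, 44 had UMIs of 3 or more markers of another type: 23 of fibro-adipogenic cells, 11 of mural cells, 8 of endothelium, 3 of myofibres and 2 of glia, with some cells on more than 1 list. None of the 46 activated cells had. At 500 UMIs the shares in cells over the limit and in table cells were 2.13% and 0.24% for fibro-adipogenic, 2.13% and 0.0185% for mural, and 1.82% and 0% (0 of 10825 cells) for endothelial markers. The authors had taken small contaminating clusters that lacked myogenic markers out of the table. That step lowers the table shares, so nothing about the limit is read from this contrast. Without thinning, the 44 cells were 12.7% of the quiescent cells over the limit, against 15.8% of the deeper table cells. The mural gene Kcnj8, the fibro-adipogenic receptor Pdgfra and the glial factor Sox10 were at 0 UMIs in quiescent cells over the limit. Results for quiescent cells are given with and without these 44 cells where it matters.

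The mitochondrial RNA itself had a different make-up in cells over the limit. The rule used the sum of the mitochondrial genes and not their proportions, so the share of each among mitochondrial UMIs was compared with that in table cells of the same library, over the 10 libraries with at least 10 cells over the limit (8 quiescent and 2 activated, both young and both a). Of 12 genes tested (mt-Nd6 had too few UMIs), 2 had a higher and 4 a lower share (exact sign-flip permutation test over libraries, adjusted over 12 genes, smallest possible unadjusted p = 0.00195). mt-Nd1, a subunit of complex I, had the largest rise, from a mean of 10.1% ± 3.46 to 12.7% ± 5.18 of mitochondrial UMIs (SD, n = 10, higher in 10 of 10, permutation adjusted p = 0.00586). Its share over the limit was lowest at 8.48%, had a median of 10.3% and was highest at 22.2%, against 7.32%, 8.94% and 17.01% in table cells. The 2 activated libraries were the high ones in both classes, so the ranges overlapped while every pair moved the same way.

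The core catalytic subunit of complex IV moved in the other direction. mt-Co1 fell from 15.8% ± 1.88 to 12.5% ± 2.44 (SD, n = 10, lower in 10 of 10, permutation adjusted p = 0.00586). mt-Nd5 fell from 0.924% ± 0.129 to 0.644% ± 0.164 (lower in 9 of 10, permutation adjusted p = 0.00938, n = 10) and mt-Nd2 from 3.60% ± 0.935 to 3.04% ± 0.603 (lower in 8 of 10, permutation adjusted p = 0.0234, n = 10), both subunits of complex I. The 2 small subunits of ATP synthase, whose reading frames overlap so that their reads may be split uncertainly, went opposite ways, with mt-Atp6 at 24.3% against 22.9% (higher in 10 of 10) and mt-Atp8 at 0.286% against 0.421% (lower in 10 of 10). The shares of mt-Co2, mt-Co3, mt-Cytb, mt-Nd3, mt-Nd4 and mt-Nd4l did not pass the test, with mt-Co2 at 8.99% in both classes.

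The same genes were then read in table cells, which the rule did not take, by comparing the 10% with the highest mitochondrial share in each library with the other table cells, without a test. There mt-Atp6 was higher in 15 of 16 libraries (23.3% against 22.5%) and mt-Nd1 in 12 of 16 (13.2% against 12.4%), and mt-Co1 was higher in 3 of 16 (13.1% against 14.0%), mt-Nd5 in 3 of 16 (0.881% against 1.04%) and mt-Nd2 in 2 of 16 (4.13% against 4.57%). mt-Atp8 was higher in 8 of 16 (0.372% against 0.397%), without the common direction it had over the limit. In quiescent libraries the ratio for mt-Nd1 was close to 1 (8.57% against 8.51%, higher in 5 of 8).

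**Figure D2:**
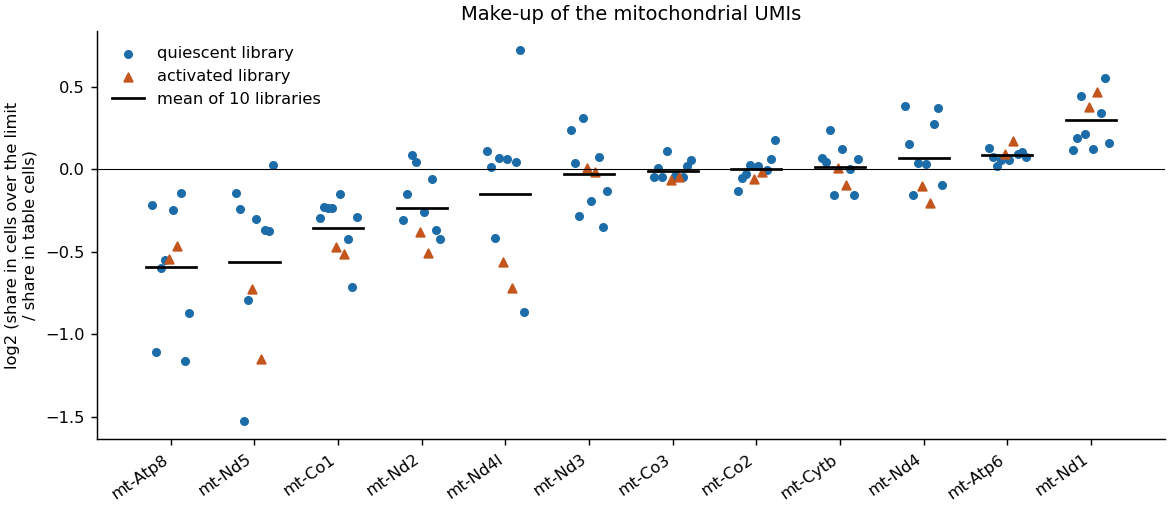
Log2 ratio of each mitochondrial gene's share of mitochondrial UMIs in cells over the limit to its share in table cells of the same library (vertical axis), for the 12 genes tested, with 8 quiescent libraries (circles), 2 activated libraries (triangles) and the mean of all 10 (line). mt-Nd1 and mt-Atp6 lie above 0 in every library, and mt-Co1 and mt-Atp8 below 0 in every library.

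The libraries were primed with oligo(dT), which can also bind a run of A inside a transcript, so the longest such run of the genes that moved is shown with that of mt-Nd4, which did not pass the test. Each line is the sense strand from the reference mitochondrial genome (GRCm38, chrM), 5′ to 3′, with the run in capitals.
mt-Nd1: tcttctatgAAAAAActttctacc
mt-Nd2: ctaatcaacAAAAAAAAcccacgatc
mt-Co1: ctactccggAAAAAAAgaacctttc
mt-Nd5: aacgacatcAAAAAAAtcattgcct
mt-Atp6: acacaaactAAAAAgctcacttg
mt-Atp8: cataaaagtAAAAAccccttgag
mt-Nd4: tcaagccctAAAAAAAcctgaacaa
The windows lie at chrM:3611-3634, chrM:4043-4068, chrM:6107-6131, chrM:12627-12651, chrM:8280-8302, chrM:7897-7919 and chrM:10218-10242, all on the plus strand and inside the coding sequence. The run was 6 bases in mt-Nd1, 8 in mt-Nd2, 7 in mt-Co1, mt-Nd5 and mt-Nd4, and 5 in mt-Atp6 and mt-Atp8. Of the other genes that did not pass the test, mt-Co3, mt-Nd3 and mt-Cytb had a longest run of 5 bases and mt-Co2 and mt-Nd4l one of 4. A part of these runs in the shares was not tested. Where reads of these genes ended was not analysed here.

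Outside the mitochondrial genome, the question was how cells over the limit differed from table cells of their own library. UMIs were summed per library and class without the mitochondrial genes and without Gm42418 and AY036118, which overlap ribosomal RNA, and values are CPM of those UMIs. In quiescent libraries 1282 of 8775 genes tested (14.6%) differed, 1025 (11.7%) higher and 257 (2.93%) lower in cells over the limit (edgeR, quasi-likelihood F-test blocked by library, Benjamini-Hochberg adjusted p under 0.05). In activated libraries 683 (7.78%) differed, 526 (5.99%) higher and 157 (1.79%) lower. This fit took the spread between libraries as shared across genes (infinite prior degrees of freedom). Its p-values and SEs therefore do not carry a gene's own spread between libraries. Without young LRC activated a the activated count was 145, without young nonLRC activated a 169, each resting on 1 activated library that is assumed to vary as the quiescent ones do, and the quiescent count without young LRC quiescent a was 788. Of 52 activated genes followed by name under each alternative, 33 lost the call without young LRC activated a and 26 without young nonLRC activated a. Among the higher genes were many at low counts, since 511 of the 1025 and 399 of the 526 had under 20 UMIs in all cells over the limit together. A gene near 0 in table cells can enter the test through the cells over the limit alone. Such entry can add genes called higher but not genes called lower, and it is part of the shares of all genes given below. Among genes at 50 CPM or more in table cells, 318 were higher and 234 lower of 2247 in quiescent, and 173 higher and 157 lower of 2903 in activated libraries. The median over all genes was +0.44 (quiescent) and +0.26 (activated) on the log2 scale, and the values of lists below stand beside it. Among genes at 50 CPM or more in table cells it was +0.07 and -0.12, the nearer reference for lists of abundant genes. Of the genes called lower, 234 of 257 and 157 of 157 were at that level. The shares of all genes called lower therefore run below the shares among genes at that level.

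These directions depended on the scale factors, the limit and the minimum number of cells. At a limit of 15% 49 genes were higher and 130 lower in quiescent libraries. With at least 20 cells per library 241 were higher and 446 lower there. With trimmed-mean factors over all genes the median moved by -1.19 (quiescent) and -0.82 (activated) and the split turned to 210 higher and 2351 lower in quiescent libraries, and with factors over genes of at least 500 CPM it moved by +0.53 and +0.74 and gave 2750 higher and 99 lower. Library sizes that include the mitochondrial UMIs moved it by -0.31 and -0.30 and gave 510 higher and 461 lower. Called with the same sign under all 6 scalings were 210 genes higher and 99 lower in quiescent libraries, and 94 higher and 36 lower in activated libraries.

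The nuclear long noncoding RNA Malat1, which stays in nuclear speckles, was the most abundant transcript and rose at both time points. In quiescent table cells it was lowest at 57145 CPM, had a median of 59345 and was highest at 64275, and in cells over the limit the same libraries gave 141309.6, 171002 and 231853 CPM. The groups did not overlap, and the lowest value over the limit, in aged LRC quiescent a, was above the highest of the table. The mean was 175478 ± 28746 against 59875 ± 2408 CPM (SD, n = 8), a log2 fold change of 1.63 ± 0.09 (SE, adjusted p = 7.7e-78, higher in 8 of 8). Its value stayed above 0 under every scaling but was not called with factors over all genes (+0.14, adjusted p = 0.339).

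Malat1 was in activated table cells at 22576 CPM in young LRC a and 33565 CPM in young nonLRC a, and in cells over the limit at 145427 and 166203 CPM. Both values over the limit lay far above both table values. The log2 fold change was 2.63 ± 0.18 (SE, adjusted p = 4.3e-46, n = 2), larger than in quiescent cells by 1.00 ± 0.19 (SE, adjusted p = 1.1e-04 for the difference), and it was 1 of 33 genes (0.376%) whose fold changes differed between the time points. That difference was 0.17 (adjusted p = 0.898) against table cells matched in depth (nearest in non-mitochondrial UMIs, an incomplete match, with medians of 975.5 against 748.5 UMIs in aged nonLRC quiescent a, 786.5 against 648 in aged LRC quiescent a and 772.5 against 630.5 in aged nonLRC quiescent b), where the fold changes were 1.35 and 1.52, and its adjusted p was 0.0558 by DESeq2, 0.0977 without young LRC activated a and 0.0942 without the 44 quiescent cells with other markers. Within the table, the upper 10% by mitochondrial share had a Malat1 log2 fold change of 0.39 (adjusted p = 0.452) in quiescent and 0.72 (adjusted p = 0.0081) in activated libraries.

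The other nuclear-retained noncoding RNAs moved with Malat1 before culture. All 5 of the 5 tested genes of the list were called higher in quiescent libraries (median log2 fold change 1.20, against 0.44 over all genes), where 11.7% of all genes tested were called higher, although the median turned to -0.26 with trimmed-mean factors over all genes. Meg3, an imprinted noncoding RNA, had 3225, 4267 and 4916 CPM in table cells (lowest, median, highest) and 4244, 8060.2 and 10569 CPM over the limit. The ranges overlapped at their edges while each of the 8 libraries rose, by 1.02 ± 0.14 (log2, SE, adjusted p = 7.4e-12). Neat1, the scaffold of paraspeckles, rose by 1.20 ± 0.18 from a median of 886 to 1887 CPM without overlap (adjusted p = 5.1e-10), and Kcnq1ot1, an imprinted antisense RNA, by 1.04 ± 0.22 from 307 to 553 CPM (adjusted p = 6.7e-05). In activated libraries, where 5.99% of all genes tested were called higher, Malat1 was the one gene of the 5 that was called.

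Genes of the cytosolic ribosome showed the opposite pattern. Of 81 tested ribosomal protein genes, 78 were lower and none higher in quiescent cells over the limit (median log2 fold change -1.01), beside 2.93% of all genes tested called lower. In activated ones 61 were lower and none higher (median -1.27), beside 1.79% called lower. Summed, they made up 264835 ± 12574 CPM of quiescent table cells and 131484 ± 38133 CPM of cells over the limit (SD, n = 8), and 270815 and 242780 CPM of activated table cells against 110109 and 94718 CPM over the limit. The sums did not overlap, the nearest quiescent library being aged LRC b at 207697 against 261187 CPM in its own table cells. The medians were under 0 in all 6 scalings, with 57 to 81 genes called lower in quiescent and 22 to 75 in activated libraries, and 1 called higher in quiescent libraries with factors over genes of at least 500 CPM. Without young LRC activated a, 20 of the activated genes were called lower, and without young nonLRC activated a, 31. Against table cells matched in depth 54 of 80 and 15 of 80 were called lower.

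Rps27, a protein of the small subunit, had 5464, 6290.4 and 7211 CPM (lowest, median, highest) in quiescent table cells and 1795, 2263 and 4953 CPM over the limit. It was lower in 8 of 8 libraries, by -1.18 ± 0.15 (log2, SE, adjusted p = 6.3e-14), without overlap. Rpl13, of the large subunit, fell from a median of 6937 to 2872 CPM (-1.04 ± 0.14, adjusted p = 9.7e-12), and in activated libraries from 5998 and 5486 to 2044 and 2319.8 CPM (-1.27 ± 0.28, adjusted p = 3.3e-04). Rplp0, the stalk protein, went from 6054 and 5455 to 2021 and 1784 CPM in activated libraries (-1.47 ± 0.29, adjusted p = 4.6e-05). Reads of ribosomal genes can also map to their many pseudogene copies, 2 of which, Rpl27-ps3 and Rps12-ps3, were among the largest quiescent falls. Within the table, the upper 10% by mitochondrial share had 0 of 81 called lower in quiescent (median -0.20) and 11 of 81 in activated libraries (median -0.22), beside 0.442% and 11.1% of all genes tested there.

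**Figure D3:**
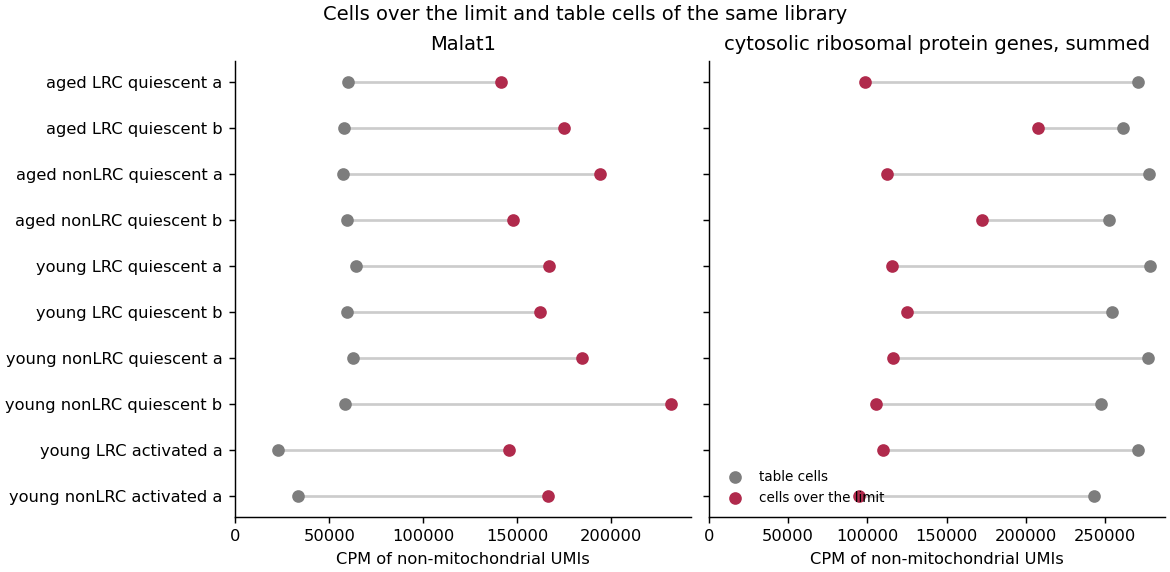
Malat1 (left) and the sum of cytosolic ribosomal protein genes (right) in CPM of non-mitochondrial UMIs (horizontal axes), in cells over the limit and in table cells of each of the 10 libraries with at least 10 cells over the limit. Malat1 is higher and the ribosomal sum lower over the limit in every library, with the smallest ribosomal gap in aged LRC quiescent b.

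Ribosomal protein mRNAs are known for a run of pyrimidines at their start, and the RefSeq starts of the 6 ribosomal genes looked at here are shown, with all 3 annotated starts of Rps19, from 5 bases before the annotated start to the 15th base from it (GRCm38.p6, sense strand), with runs of 6 or more C or T in capitals.
Rps27: tcgCTCCTTTCCggcggtga
Rps23: gggcggggCTTCCCgcaatg
Rps2: gatctcgcgCTTCTTggagc
Rplp0: ttcgaggaccgcctggttct
Rpl13: cctgattttgattggcgttt
Rps19: cgcgagactcgacgcccgac
Rps19: agtgagggctctgggtcgcg
Rps19: ggtgtggagggCTCTCCCac
The windows lie at chr3:90213634-90213653 (minus strand), chr13:90923117-90923136, chr17:24720058-24720077, chr5:115559462-115559481, chr8:123102345-123102364, chr7:24884587-24884606, chr7:24884671-24884690 and chr7:24884908-24884927. Of these 8 windows 4 held such a run and 4 did not. Such a run was in 40.0% of 75 windows of the 63 ribosomal genes matched, of 84 in the list, against 17.6% of the 32851 windows of all genes. It was in 20.7% of the windows of the other genes called lower in quiescent cells and in 15.3% in activated cells, against 16.4% for all genes tested. A match describes these letters only, and an annotated start may differ from the one used.

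Few nuclear genes of the respiratory chain were called in quiescent cells, although the counts depended on the scale factors. Of 37 complex I genes, 4 were higher over the limit, beside 11.7% of all genes tested, among them Ndufa13, which went from a median of 236 to 305 CPM (0.85 ± 0.24, adjusted p = 0.0046) and was higher in 5 of 8 libraries. None of the 4 genes of complex II, 12 of complex IV and 15 of ATP synthase was called, and 1 of 9 of complex III, Uqcrh, was lower (-0.69 ± 0.23, adjusted p = 0.0202). The medians were 0.16 for complex I, -0.04 for complex III, -0.14 for complex IV and -0.19 for ATP synthase, each under the median of all genes (0.44), and 0.64 for complex II, above it. The median of genes at 50 CPM or more in table cells was 0.07. Complexes I and II lay above that value, and complexes III and IV and ATP synthase under it. With trimmed-mean factors over all genes, beside 210 higher and 2351 lower of all 8775, 1 gene of complex I was higher. Lower were then 22 of 37 in complex I, 1 of 4 in complex II and 6 of 9 in complex III. So were 11 of 12 in complex IV and 14 of 15 in ATP synthase. With factors over genes of at least 500 CPM, beside 2750 higher and 99 lower, 12, 2, 1, 3 and 2 genes of these complexes were higher and 0 lower. Without the 44 cells with other markers no gene of these 5 complexes was called higher, and 5 of 36 in complex I, 6 of 9 in complex III, 5 of 11 in complex IV and 8 of 15 in ATP synthase were lower, the median of all genes being +0.32 and 808 of all 8157 genes tested in that fit being called higher and 311 lower.

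In activated cells, beside 5.99% higher and 1.79% lower over all genes tested, 2 of 37 genes of complex I were higher and 1 lower, 1 of 4 of complex II higher, 1 of 9 of complex III higher and 1 lower, 1 of 12 of complex IV higher and 1 lower, and 1 of 15 of ATP synthase lower. Among the higher ones were Ndufs1 of complex I and Sdha of complex II, Sdha at 432 and 393 CPM against 128 and 107 in table cells (1.93 ± 0.45, adjusted p = 9.4e-04), and Ndufa12 and Atp5l were lower, Atp5l at 249.8 and 143 against 633 and 563 CPM (-1.45 ± 0.47, adjusted p = 0.033). Uqcr10 of complex III and Cox7a2l of complex IV were also lower with 3 and 2 UMIs over the limit, at ratios of 0.169 (exact Poisson 95% interval 0.0348 to 0.493) and 0.139 (0.0169 to 0.504). Of 76 mitochondrial ribosome genes 1 was lower in quiescent cells, and 1 was higher and 1 lower in activated ones. Other genes of the organelle were its chaperones and proteases. Grpel1 and Hspe1, which serve protein folding in the matrix, were the 2 of 15 called in quiescent libraries, both lower, Hspe1 from a median of 1372 to 644 CPM (-1.04 ± 0.19, adjusted p = 2.7e-06). In activated libraries 4 of 15 were higher, among them Hspd1, the partner of Hspe1, at 3475 and 1784 against 1391 and 1201 CPM (1.10 ± 0.32, adjusted p = 0.0149), and the protease Htra2. The difference between the time points was not called for Hspd1 (adjusted p = 0.0571).

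Genes of the endoplasmic reticulum, whose mRNAs are translated at its membrane, were compared next, beside 11.7% higher and 2.93% lower over all genes tested in quiescent and 5.99% and 1.79% in activated libraries. Of 31 genes for the translocon and glycosylation, 15 were higher in quiescent (median 0.85) and 7 in activated libraries (median 0.74), none was lower, and of 17 lumenal chaperones 9 (median 0.76) and 6 (median 1.18) were higher. Each of these medians except that of the activated chaperones fell under 0 with trimmed-mean factors over all genes, and the quiescent counts were 6 and 4 without young LRC quiescent a. The activated counts rest on 2 libraries. Sec62, a translocon protein, had 376, 390 and 412 CPM (lowest, median, highest) in quiescent table cells and 332, 876 and 1935 CPM over the limit. It was higher in 7 of 8 libraries (1.29 ± 0.20, adjusted p = 9.9e-09). Canx, the membrane-bound chaperone calnexin, rose from a median of 189.9 to 361 CPM without overlap (1.10 ± 0.24, adjusted p = 1.4e-04), and Hspa5, the lumenal chaperone BiP, from 4396 to 6166 CPM with overlap (0.57 ± 0.14, adjusted p = 7.2e-04). In activated libraries Rpn1, of the complex that attaches sugars, was at 613 and 749 against 126 and 109.8 CPM (2.64 ± 0.40, adjusted p = 5.1e-08), and Lman1, a cargo receptor, at 522 and 821 against 144 and 105 CPM (2.52 ± 0.41, adjusted p = 3.2e-07).

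Receptors and adhesion molecules of the cell surface were read against the same shares of all genes. Of 33 tested, 11 were higher in quiescent (median 0.79) and 19 in activated libraries (median 2.21), and none was lower. The difference between the time points was not tested for the list, the activated side rests on 2 libraries, and the quiescent median turned to -0.53 with factors over all genes. Itga7, the α7 integrin used in the sort, was at 591 and 642 CPM in activated cells over the limit and at 49.8 and 29.0 CPM in table cells (4.11 ± 0.44, adjusted p = 5.9e-17, 44 UMIs). In quiescent libraries it went from a median of 50.4 to 109 CPM, with a range from 0 to 407 (1.53 ± 0.34, adjusted p = 1.6e-04), and the difference between time points was called (2.57, adjusted p = 3.6e-04), but not by DESeq2 (adjusted p = 0.0610) or against table cells matched in depth (adjusted p = 0.260). Vcam1, the other positive marker of the sort, was at 591 and 178 against 61.5 and 60.3 CPM in activated libraries (2.80 ± 0.44, adjusted p = 2.2e-07) and was not called in quiescent ones (0.40 ± 0.18, adjusted p = 0.116). Ncam1, an adhesion molecule of myogenic cells, was at 772 and 499.6 against 113 and 44.0 CPM (3.20 ± 0.43, adjusted p = 2.0e-10) and Met, the receptor of hepatocyte growth factor, at 522 and 428 against 82.4 and 63.2 CPM (2.83 ± 0.45, adjusted p = 2.2e-07).

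Among the 12 MuSC markers as a list, Itga7 was higher and Myf5, a myogenic regulator, lower in quiescent libraries, and Itga7, Vcam1, Cdh15 and Des were higher in activated ones, beside 11.7% higher and 2.93% lower of all genes tested in quiescent and 5.99% and 1.79% in activated libraries. Myf5 went from a median of 197 to 99.2 CPM (-0.99 ± 0.33, adjusted p = 0.0224, 31 UMIs) and was no longer called without the 44 cells with other markers (adjusted p = 0.172), when 5 of the 12 were higher, beside 808 higher and 311 lower of all 8157 genes tested in that fit. Cdh15, M-cadherin, was at 341 and 178 against 92.7 and 48.4 CPM (2.00 ± 0.52, adjusted p = 0.00437) and Des, desmin, at 249.8 and 535 against 186 and 121 CPM (1.42 ± 0.44, adjusted p = 0.0253).

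Among the antioxidant, immediate early and heat shock lists some genes were lower in quiescent cells over the limit, where 2.93% of all genes tested were called lower and 11.7% higher. Among genes at 50 CPM or more in table cells, 234 of 2247 were lower and 318 higher, the nearer reference for abundant genes. Metallothioneins, which bind metal ions and are abundant in freshly isolated MuSCs, led the quiescent falls among antioxidants, of which 4 of 21 were lower and 1 higher. Mt2 had 8773, 9854 and 11588 CPM (lowest, median, highest) in table cells and 1238, 3683 and 7537 CPM over the limit, lower in 8 of 8 libraries without overlap (-1.32 ± 0.14, adjusted p = 4.2e-19). Mt1 fell from a median of 7418 to 2753 CPM (-1.13 ± 0.15, adjusted p = 1.2e-12, lower in 7 of 8), Txn1, thioredoxin, from 683 to 333 CPM without overlap (-1.09 ± 0.23, adjusted p = 4.4e-05), and Sod2, the superoxide dismutase of mitochondria, from 303 to 99.3 CPM (-1.07 ± 0.30, adjusted p = 0.00423). Of 22 immediate early genes 5 were lower and 2 higher, Fosl1 from a median of 534 to 281 CPM (-1.03 ± 0.25, adjusted p = 7.6e-04) and Myc from 531 to 226 CPM without overlap (-0.87 ± 0.24, adjusted p = 0.00521). With trimmed-mean factors over all genes 17 of the 22 were lower and 0 higher. With factors over genes of at least 500 CPM 11 were higher and 0 lower. Of 13 heat shock genes 3 were lower, among them Hspb1 (-1.09 ± 0.16, adjusted p = 9.9e-10), from a median of 4142 to 1274 CPM, and Dnajb1 (-0.91 ± 0.19, adjusted p = 6.7e-05). Against table cells matched in depth 0 of 11 heat shock genes were lower (median -0.05), and Hspb1 was not called (-0.44, adjusted p = 0.324). Hspb1 was at 5984 CPM in aged LRC b, far from the other libraries. Of 24 integrated stress response genes 3 were higher and 1 lower (median -0.11), and of 18 p53 targets 3 were higher (median 0.43, against 0.44 over all genes), beside the 11.7% of all genes called higher. The median of genes at 50 CPM or more in table cells was 0.07. No gene of 14 tested for apoptosis was called in quiescent libraries, with a median of 0.12.

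In activated cells over the limit Hmox1, Cdkn1a and Ppp1r15a were low. Hmox1, heme oxygenase, was at 295 and 393 CPM against 1789 and 2568 in table cells (-2.52 ± 0.36, adjusted p = 4.8e-09). Cdkn1a, the p53 target p21, was at 159 and 321 against 1421 and 2469 CPM (-2.91 ± 0.43, adjusted p = 1.7e-08). Ppp1r15a, which ends the integrated stress response, had 2 UMIs, at 22.7 and 35.7 against 312 and 685 CPM, a ratio of 0.058 (exact Poisson 95% interval 0.00702 to 0.209). For all 3 both values over the limit lay under both table values, and the difference from the quiescent effect was called (-2.49, -2.55 and -3.95 on the log2 scale, adjusted p = 8.9e-07, 1.2e-04 and 2.5e-04). Without young LRC activated a the difference was -2.39 for Cdkn1a (adjusted p = 0.0977) and -4.13 for Ppp1r15a (adjusted p = 0.0592), and by DESeq2 it was -3.91 for Ppp1r15a (adjusted p = 0.0558), each past the threshold no longer.

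They belong to lists that were mixed, and the counts stand beside 5.99% of all genes tested called higher and 1.79% lower in activated libraries. Among genes at 50 CPM or more in table cells, 157 of 2903 were lower and 173 higher. Of 24 genes of the integrated stress response 4 were lower (with Ppp1r15a also Nupr1 and Mthfd2) and 1 higher, the cystine transporter Slc7a11 at 954 and 1035 against 103 and 157 CPM (3.10 ± 0.40, adjusted p = 1.2e-11). Of 18 p53 targets Cdkn1a was lower and Plk2 higher, at 954 and 642 against 328 and 359 CPM (1.36 ± 0.39, adjusted p = 0.0112), and of 14 apoptosis genes Cycs, cytochrome c, was the one called, lower at 363 and 178 against 827 and 997 CPM (-1.55 ± 0.44, adjusted p = 0.0112). Fosl1 was lower (-2.05 ± 0.50, adjusted p = 0.00179) and Jun higher (1.32 ± 0.43, adjusted p = 0.033). Of 16 glycolytic genes 4 were higher, with Pkm at 2612 and 3569 against 1368 and 1116 CPM (1.43 ± 0.32, adjusted p = 6.6e-04), and none was called in quiescent cells.

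The activated falls and rises of single genes were also seen inside the table. In the upper 10% of activated table cells by mitochondrial share 3208 of 8607 genes (37.3%) differed from the rest, 2256 (26.2%) higher and 952 (11.1%) lower, and these included Hmox1 (-1.26), Cdkn1a (-0.94), Ppp1r15a (-1.37) and Nupr1 (-2.01), all lower, and Slc7a11 (0.87), Ncam1 (0.92), Met (0.83) and Itga7 (0.62), all higher. Of 25 integrated stress response genes 24 were lower there and 1 higher, and of 31 surface genes 21 were higher and 1 lower. In quiescent libraries 75 of 8607 (0.871%) differed, with 0 of 81 ribosomal, 0 of 5 nuclear noncoding and 1 of 31 surface genes called. The size of the upper 10% differs in cells and depth from the 393 cells, and the 2 comparisons share their table cells.

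**Figure D4:**
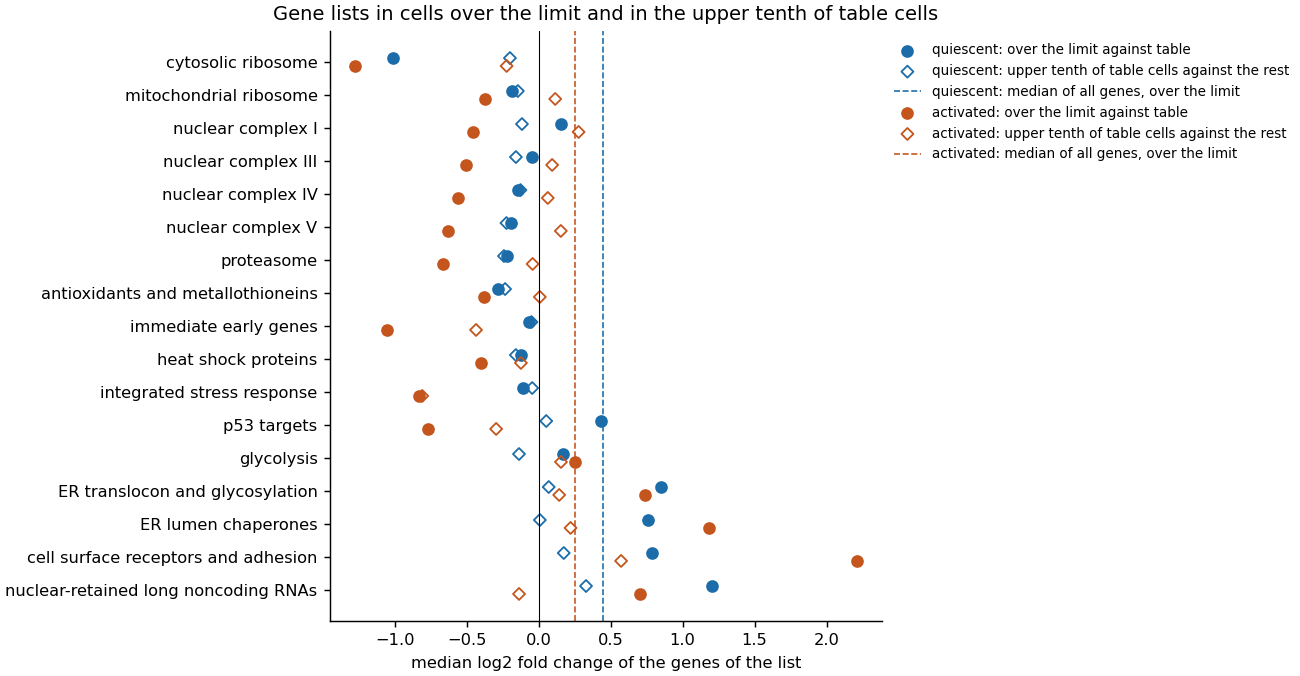
Median log2 fold change of the genes of each list (horizontal axis) in cells over the limit against table cells (filled circles) and in the upper 10% of table cells by mitochondrial share against the rest (open diamonds), at each time point, with dashed lines at the median of all genes for the first comparison. Ribosomal genes lie furthest to the left at both time points over the limit (-1.01 and -1.27), and surface genes of activated cells furthest to the right (2.21).

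Markers of other cell types were unevenly spread over the quiescent libraries. The table had been cleared of small contaminating clusters by the authors, which bears on each comparison with table cells here. Summed, the 10 mural markers were higher over the limit than in table cells of the same library in 6 of 8 libraries, from 0 CPM in aged LRC b to 11884 CPM in aged LRC a. The 10 endothelial markers were higher in 5 of 8, up to 1441 CPM in aged nonLRC a, the 10 fibro-adipogenic markers in 7 of 8, up to 4042 CPM in aged LRC a, and the 10 glial markers in 5 of 8, up to 601 CPM in young LRC a. Of the 10 of each list 6, 6, 7 and 4 were called higher, counts from which nothing is read, since a marker near 0 in table cells can enter the test through the cells over the limit alone. Acta2, smooth muscle actin and the most abundant mural marker, was in cells over the limit at 7357 CPM in aged LRC a, 2738 in young nonLRC a and 826 in young LRC a, between 0 and 338 in the other 5 quiescent libraries, and between 75.4 and 158 CPM in table cells. Its log2 fold change of 2.76 ± 0.25 (adjusted p = 8.9e-25) became -0.999 (adjusted p = 0.0735) without the 44 cells, which were chosen by such markers. The first p-value and its SE do not carry the spread of Acta2 itself between libraries. Fabp4, the most abundant endothelial marker, was lowest at 0, had a median of 416 and was highest at 1293 CPM, against 0.572, 5.67 and 22.97 CPM in table cells. The endothelial markers together made up 0 CPM in 3 of the 8 libraries. In activated cells no endothelial, glial or fibro-adipogenic marker was called, all 10 endothelial markers were at 0 UMIs, and Acta2 was at 454 and 143 against 46.2 and 6.68 CPM (3.69 ± 0.55, adjusted p = 1.7e-08) with 8 of the 10 mural markers at 0 UMIs. Without the 44 cells 1119 genes were called in quiescent libraries, 808 higher and 311 lower, and 78 of 81 ribosomal genes and 5 of 5 nuclear noncoding RNAs were again among the lower and higher ones.

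Some of the largest single-gene changes with the same direction in every quiescent library follow. Kdm2a, a histone demethylase, rose from a median of 46.9 to 115 CPM without overlap (1.56 ± 0.34, adjusted p = 1.7e-04), Ccnt2, a cyclin of transcription elongation, from 69.2 to 184 CPM without overlap (1.55 ± 0.30, adjusted p = 8.5e-06), and Tnxb, the matrix protein tenascin X, from 40.9 to 99.9 CPM (1.63 ± 0.34, adjusted p = 6.3e-05). At the other end stood Hmgn2, a nucleosome-binding protein, from 168 to 32.4 CPM without overlap (-2.16 ± 0.43, adjusted p = 1.4e-05, 11 UMIs), and Smim3, a small membrane protein with 3 UMIs over the limit, a ratio of 0.182 (exact Poisson 95% interval 0.0376 to 0.533).

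After culture the largest changes rested on very few molecules. Among the rises, Dll1, a Notch ligand, and Ptk7, a receptor of Wnt signalling, had 6 UMIs each, Dll1 at 114 and 35.7 against 4.59 and 2.87 CPM. The largest falls were of genes with 0 UMIs over the limit, for which a floor of 3 counts over both libraries gives at least 5.02-fold lower for Rnf7, at least 4.33-fold lower for Ppp1cb and at least 2.94-fold lower for Taf10. With counts this low the order of these genes is not informative.

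Fold change followed the length of the transcript at both time points. Longest annotated transcripts (GENCODE M21) had a median of 4110 bases among genes higher in quiescent cells over the limit and 1421 among genes lower, against 3423.5 among all tested, and 4098 and 1326 in activated libraries. Without ribosomal genes the lower ones had medians of 1711 and 1827 bases. Among genes at 50 CPM or more in table cells, the median log2 fold change in quiescent libraries went from -0.56 at up to 1000 bases over -0.32, -0.05, 0.19 and 0.42 to 0.62 above 8000 bases, in activated libraries from -0.87 over -0.48, -0.15, 0.11 and 0.39 to 0.91. Each class held at least 132 genes. The order was the same against table cells matched in depth, from -0.43 to 0.53 and from -0.51 to 0.93, in classes of at least 45 and 38 genes. Without ribosomal genes the 2 shortest matched classes were at -0.10 and 0.13 in quiescent and at 0.02 and -0.04 in activated libraries. The longest stayed at 0.53 and 0.93. The low short end against matched cells thus lay largely in ribosomal genes. Against all table cells the shortest class without them was at -0.42 and -0.73. In the upper 10% of table cells the medians spanned -0.21 to 0.13 in quiescent and -0.07 to 0.06 in activated libraries. These are descriptions over genes, which are not replicates, and another scaling shifts all classes alike.

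**Figure D5:**
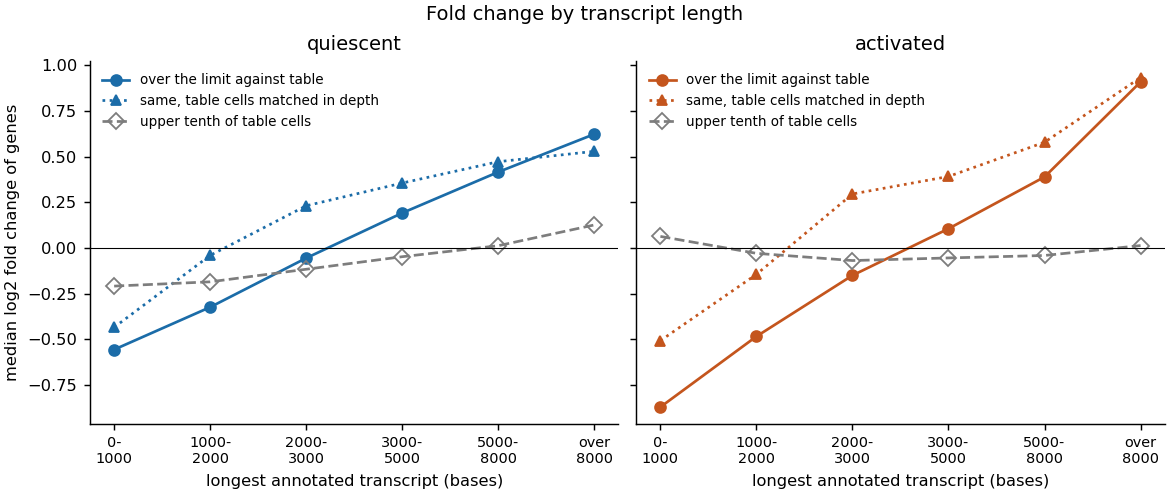
Median log2 fold change (vertical axis) of genes at 50 CPM or more in table cells by class of longest annotated transcript in bases (horizontal axis), for cells over the limit against all table cells (circles), against table cells matched in depth (triangles) and for the upper 10% of table cells against the rest (diamonds). Against all table cells, short transcripts are lower and long ones higher over the limit at both time points, from -0.56 to 0.62 in quiescent and from -0.87 to 0.91 in activated libraries.

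At an equal depth of 300 or 500 UMIs the cells over the limit held slightly fewer genes in quiescent libraries, and at 300 UMIs also in activated ones. Thinned to 500 non-mitochondrial UMIs, they had 312 genes per cell against 322 in table cells (difference -10.2 ± 9.46, SD, n = 9 libraries, lower in 8 of 9, exact sign-flip permutation p = 0.0117). In the 7 quiescent libraries the means were 299 and 312, and in the 2 activated ones 360 and 359. At 300 UMIs, with 371 members used and 7 left out, the means were 201 and 215 genes. They were lower in 10 of 10 libraries (difference -14.7 ± 5.17, SD, exact sign-flip permutation p = 0.00195, the smallest possible), and in the 2 activated ones 228 against 236. At 1000 UMIs the order turned, with 30.9 more genes in 5 of 5 libraries (exact permutation p = 0.0625, the smallest possible). In these libraries 118 members were used and 186 were too shallow, and the other libraries did not enter.

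Within the cells over the limit, quiescent and activated cells kept far-apart profiles. In a fit of time point, age and label class over the 10 libraries, 242 of 649 genes (37.3%) differed by time point, 123 (19.0%) higher and 119 (18.3%) lower in activated cells. The 2 activated and 8 quiescent libraries did not overlap for 276 of the 649 (42.5%). Slc7a11, at 954 and 1035 CPM in activated and at 0 to 133 CPM in quiescent libraries, rose most (6.23 ± 0.93 log2, adjusted p = 5.3e-04), followed by Taldo1 of the pentose phosphate pathway and the glycolytic enzyme Eno1. The immediate early genes Fos and Fosb were at 0 UMIs in activated cells over the limit and at 434 to 6603 and 768 to 2702 CPM in quiescent ones, and Meg3 went from 4244 to 10569 CPM down to 45.4 and 249.8 CPM. Table cells of the same libraries changed in the same direction for each of these genes (Slc7a11 by 3.38 and Meg3 by -4.83, log2 of the mean CPM). Both activated libraries are young and are a libraries. The count was 34 when young LRC activated a was left out and 103 without young nonLRC activated a.

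By edgeR no gene was called by age or label class within these cells. By age 0 of 649 genes (0.0%) were called by edgeR, with 25 at an unadjusted p under 0.05 and 2 called by DESeq2, and by label class 0 of 649 (0.0%), with 10 and 0. Without the filter on low counts 11 and 9 genes were called, and with a minimum of 5 cells 1 by age. The 4 aged and 4 young quiescent libraries did not overlap for 17 of 649 genes (2.62%), and the 4 LRC and 4 nonLRC ones for 14 (2.16%). The gene with the smallest p by age was the chemokine Ccl2, at 80.8 to 422 CPM in the 4 aged and 354 to 1833 CPM in the 4 young quiescent libraries (-2.56 ± 0.48, adjusted p = 0.0907). Next came Serpinh1, a collagen chaperone, at 103 to 844 against 931 to 2343 CPM (adjusted p = 0.356), and Id3, an inhibitor of helix-loop-helix factors, at 269 to 566 against 674 to 1861 CPM (adjusted p = 0.999), both without overlap. By label class it was Nppc, which encodes C-type natriuretic peptide, at 728 to 2683 CPM in LRC and 266 to 676 CPM in nonLRC libraries without overlap (1.77 ± 0.45, adjusted p = 0.998). With 10 libraries of 11 to 138 cells these comparisons have little depth, and a difference may have been missed.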

How the data were processed

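Per the submitters' processing notes and the methods, libraries (10x 3′ v2) were processed with bcl2fastq and Cell Ranger (STAR alignment, libraries aggregated) against mm10 and analysed with Seurat (versions not given in the sources used here). The authors deposited a matrix of raw UMI counts and a cell table, whose mitochondrial values are a fraction of UMIs per cell and which was used only for membership and to check that fraction. They removed cells above 10% and, as putative doublets, cells above 5000 genes, and no doublet caller was run here. They also took out small contaminating clusters that lacked myogenic markers. Deposited counts were summed per library and class for libraries with at least 10 cells over the limit, without mt- genes, Gm42418 and AY036118.

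Sums were compared with edgeR 4.0.16 (R 4.3.3, quasi-likelihood, filterByExpr, library as block, Benjamini-Hochberg over all genes tested). TMM factors were taken from genes with a UMI in every sum, a choice made after the factors over all genes had been seen. Shares, mitochondrial make-up and genes per thinned cell were tested by exact permutation (scipy 1.17.1). DESeq2 1.42.0, other scalings, limits, filters, minimum cells, depth-matched table cells, exclusion of cells with other markers and leaving out each library were alternatives, and those by TMM genes, by 2 markers, without cells over 50%, by joint matching and by library letter were chosen after seeing the data. Named genes were up to 10 of the largest called rises and falls per time point with the same direction in every library and a mean of 50 CPM or more in either class, up to 5 each way within the cells over the limit, all mt- genes, and up to 4 of each list by call and level; other genes named were chosen after their values were seen. The members and gene lists were chosen with earlier results of these data known. Depth is given in the report as a range over libraries, and binomial and Poisson intervals cover counting error only. Some genes that the naming rule selects are not reported here.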

Additional observations from a re-analysis of the deposited data

Results flagged for a closer look

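In 3 of 29 groups of 8 libraries examined, a single library stood far from the others among cells over the limit, where chance alone gives about 1 in 20. Hspb1 was at 5984 CPM in aged LRC quiescent b, which has 11 cells over the limit, against a median of 1274 CPM over the 8 quiescent libraries. Acta2 was at 7357 CPM in aged LRC quiescent a, where 4 of 24 cells carried 3 or more markers of another cell type. Il6, a cytokine, was at 2858 CPM in young nonLRC quiescent b against a median of 159 CPM.

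The effect of being over the limit differed between the time points, by the test of the difference itself (edgeR, adjusted over 8775 genes), for these genes named in the text. On the log2 scale the activated minus the quiescent fold change was 1.00 for Malat1, 2.57 for Itga7, 2.39 for Vcam1, 2.78 for Ncam1, 1.97 for Rpn1, 1.45 for Pkm and 1.89 for Jun. It was -2.49 for Hmox1, -2.55 for Cdkn1a and -3.95 for Ppp1r15a. The activated side rests on 2 young libraries with 17 and 14 cells over the limit, while the quiescent side holds both ages, so the part of age was not tested. Against table cells matched in depth the difference was called again for Hmox1 (-3.39), Cdkn1a (-2.52), Ppp1r15a (-4.09), Ncam1 (3.32) and Vcam1 (4.50), and not for Malat1 (0.17), Itga7 (3.10), Jun (1.86), Pkm (1.45) and Rpn1 (1.63). With 1 activated library left out, the other is a lone library that is assumed to vary as the quiescent ones do, so the values below are given for their size. Without young LRC activated a, the difference was past the threshold for Hmox1 (-2.49), Ncam1 (3.29) and Itga7 (3.12), and not for Malat1 (0.86), Cdkn1a (-2.39), Ppp1r15a (-4.13), Jun (2.15), Pkm (1.89), Rpn1 (2.30) and Vcam1 (1.37, adjusted p = 0.797). Without young nonLRC activated a it was past the threshold for Malat1 (1.12), Hmox1 (-2.50) and Vcam1 (2.94), and not for Cdkn1a (-2.73), Ppp1r15a (-3.76), Ncam1 (2.43), Itga7 (2.09), Jun (1.64), Pkm (1.02) and Rpn1 (1.68). By DESeq2 the difference was called for Hmox1 (-2.45), Cdkn1a (-2.50), Ncam1 (2.97) and Jun (1.94). It was about as large but not called for Malat1 (1.03), Ppp1r15a (-3.91), Vcam1 (2.45), Itga7 (2.60), Pkm (1.51) and Rpn1 (2.06).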

How the results depend on the processing

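No paired analysis was possible because the library numbers in the barcodes carry no mouse number, and the letters a and b follow those numbers; the fit itself pairs both classes within a library, and without that block 1492 quiescent genes, 768 activated genes and 47 differences were called. Of 3026 values of 119 named genes under an alternative, 2620 kept direction and call, 372 lost the call, 8 gained it and 26 reversed; the causes were not tested. Quiescent calls numbered 2561 with TMM over all genes, 2849 with TMM over genes of at least 500 CPM, 770 without cells with 2 other-type markers, 179 at a limit of 15%, 687 with at least 20 cells, 216 against depth-matched table cells (858 genes tested) and 247 with depth matching and exclusion of cells with 3 other-type markers together. The quiescent split was 49 higher and 130 lower at a limit of 15%, and 241 higher and 446 lower with at least 20 cells. Activated calls numbered 411 by DESeq2, 390 and 1539 with the 2 TMM choices, 86 against matched cells and 112 with matching and exclusion. Differences between time points numbered 11 by DESeq2, 70 with TMM over 500 CPM, 69 with at least 5 cells, 9 with matching and 8 with matching and exclusion.

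For table cells, the upper 20% gave 297 quiescent and 5218 activated calls and the upper 5% 39 and 1499. Within the cells over the limit, no filter gave 833 genes by time point, 11 by age and 9 by label class, DESeq2 gave 2 by age and at least 5 cells gave 1. Of the mt- genes 0 were called with at least 20 cells, when fewer libraries remain. At a limit of 15% the label difference in share was 0.0488 percentage points, and at 1000 UMIs the difference in genes per cell was 30.9.

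With TMM over all genes the quiescent log2 fold change reversed for Meg3 (-0.47), Neat1 (-0.26), Kcnq1ot1 (-0.39), Sec62 (-0.17), Canx (-0.28), Hspa5 (-0.92), Calr (-0.59), Pdia3 (-0.48), Cd63 (-0.80), Itgb1 (-0.44), Cd44 (-0.48), Vcam1 (-1.13), Ndufa13 (-0.59), Slc3a2 (-0.59) and Plk2 (-0.55). Hspb1 was 0.0913 and the Malat1 difference -0.0160 with matching and exclusion. Without cells with 2 or 3 other-type markers, Acta2 was -2.11 and -0.999, Tagln -11.04 and -3.21, and Dcn -9.92 and -0.24 (with 2 markers, 0 UMIs of Tagln and Dcn remained and the fitted value is no bound); at 15% Acta2 was -1.49 and Tagln -0.50, and with all barcodes under the limit Dcn was -0.48.

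Leaving out 1 library at a time gave 788 to 1248 quiescent calls (lowest without young LRC quiescent a), 145 to 749 activated calls (lowest without young LRC activated a), 6 to 48 differences (lowest without young nonLRC activated a), 34 to 288 genes by time point within the cells over the limit (lowest without young LRC activated a), 0 by age and 0 by label class. The label difference in share spanned -0.730 to 0.326 percentage points, the age difference 0.00902 to 1.03 and the time difference 1.76 to 2.56. The limit of 20% for genes left 1 library with at least 10 cells and could not be fitted, and no activated library had 20 cells. Without either activated library, the other is assumed to vary as the quiescent ones do. Few cells and UMIs limit the results for activated genes.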

Other observations

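A few further gene lists gave values that belong to no comparison above. Of 11 tested chemokines and cytokines, the signals that attract and instruct immune cells, 5 were higher and 0 lower in quiescent cells over the limit (median log2 fold change 0.76, against 0.44 over all genes tested, of which 11.7% were called higher), but 1 was higher and 3 lower with trimmed-mean factors over all genes. Of 36 genes of the proteasome, which degrades tagged proteins, 0 were higher and 2 lower in quiescent libraries (median -0.22), beside 11.7% and 2.93% of all genes tested, and 1 was higher and 5 lower in activated ones, beside 5.99% and 1.79% (median -0.66, against 0.26 over all genes tested). Genes at 50 CPM or more in table cells had medians of 0.07 in quiescent and -0.12 in activated libraries. Of these genes 234 of 2247 and 157 of 2903 were called lower. The activated counts rest on 2 libraries. Of 13 genes of mitophagy and autophagy, by which cells clear organelles, 0 were higher and 3 lower in quiescent (median -0.20, with the same 2.93% of all genes called lower) and none was called in activated libraries (median -0.71).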
